A study of Mus musculus with 7 samples.

Results

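The genes described are 9 surface molecules through which myeloid cells stimulate or restrain T cells, out of 26130 genes in a count table of sorted mouse lung cells. They were taken by gene symbol: Cd40, Cd80, Cd86, Cd83, Cd274, Pdcd1lg2, Icosl, Tnfsf9 and Havcr2. All 9 were in the table and all 9 were among the 13665 genes abundant enough to be tested. The cells came from mice that carried an mScarlet reporter of Fth1, the ferritin heavy chain, together with a GFP reporter of Lyz2, the lysozyme gene of myeloid cells, and every group shared both alleles. The sort kept lung cells that were GFP-positive, CD11b-positive, Ly6C-positive and Ly6G-negative, which selects monocytes and their progeny. Untreated Fth1-low cells gave 2 libraries. The LPS groups came from mice that received lipopolysaccharide (LPS, from the outer membrane of bacteria) intratracheally 3 days earlier, 20 µg in a volume of 50 µl, with 2 libraries of Fth1-low cells and 3 of Fth1-high cells. The sources used here do not give ages, sexes or the number of mice per library, and no Fth1-high libraries of untreated mice were analysed here.

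A T cell that recognises antigen needs further contacts with the presenting cell, and the 9 genes encode such contacts. CD80 and CD86 bind CD28, which promotes activation, and CTLA-4, which limits it, while ICOS ligand and CD137 ligand (Tnfsf9) engage receptors that activated T cells display. CD40 works in the other direction: it is a receptor on the myeloid cell that receives CD40 ligand from T cells and raises the presenting capacity of the cell that carries it. PD-L1 (Cd274) and PD-L2 (Pdcd1lg2) bind the inhibitory receptor PD-1, and interferon-gamma is a well-known inducer of PD-L1. CD83 marks mature dendritic cells and stabilises CD86 and MHC class II at the surface. TIM-3 (Havcr2) is itself an inhibitory receptor, found on myeloid cells as well as on exhausted T cells.

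LPS Fth1-low replicate 1 was shallow, with a total of 637787 counts, and the deepest library, LPS Fth1-high replicate 3, had 27997007. The other 6 totals exceeded the shallow one by 16.4 to 43.9 times. There a single count stood for 1.67 CPM, the unit of counts scaled to the library's total, against 0.0353 to 0.0932 CPM elsewhere, and ribosomal RNA took 18.6% of counts, against 0.630% to 8.33% elsewhere. Across genes, which are no independent replicates, its Pearson correlation with its partner in log2 CPM was 0.863, and the other replicate pairs gave 0.960 to 0.980. Monocyte genes were present in every library. Lyz2, Itgam and Ly6c2, which match the sort, summed with Csf1r, Ccr2 and Fcgr1 to between 11634 and 17825 CPM. Lyz2 was the largest part of that sum, with 6136 to 12491 CPM. Ly6g reached no more than 2 counts in a library. Since only 2 or 3 libraries stand behind each group and the labels do not say whether they came from separate mice, p-values measure the spread between these libraries.

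The start regions of 3 of the genes are shown because the PD-1 ligands are neighbours that both had their highest group mean in the LPS Fth1-high cells, whereas Icosl had the lowest fitted difference between the LPS gates. Cd274 (chromosome 19, 29367455 to 29388095 in mm10, plus strand) and Pdcd1lg2 (chromosome 19, 29410919 to 29471161, plus strand) lie 22.8 kb apart. Icosl is on chromosome 10 from 78069302 to 78083913, plus strand. Each sequence is the 250 bases before a RefSeq transcript start in GRCm38.p6, which is mm10, on the plus strand. The windows are chr19:29367188-29367437 for Cd274, chr19:29410669-29410918 for Pdcd1lg2 and chr10:78069118-78069367 for Icosl. Capitals mark matches to the interferon regulatory factor pattern AANNGAAA or to the loose kappaB pattern GGGNNNNNCC, on either strand.
Cd274: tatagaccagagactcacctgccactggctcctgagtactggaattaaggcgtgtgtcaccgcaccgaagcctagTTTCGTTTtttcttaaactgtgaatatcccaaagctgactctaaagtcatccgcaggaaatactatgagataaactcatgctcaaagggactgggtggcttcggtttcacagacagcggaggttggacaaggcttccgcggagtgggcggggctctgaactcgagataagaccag
Pdcd1lg2: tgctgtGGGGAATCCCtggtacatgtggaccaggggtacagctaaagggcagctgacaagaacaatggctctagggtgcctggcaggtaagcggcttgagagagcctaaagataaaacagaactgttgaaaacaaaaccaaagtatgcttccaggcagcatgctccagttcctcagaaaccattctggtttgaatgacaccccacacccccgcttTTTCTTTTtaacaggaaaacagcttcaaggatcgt
Icosl: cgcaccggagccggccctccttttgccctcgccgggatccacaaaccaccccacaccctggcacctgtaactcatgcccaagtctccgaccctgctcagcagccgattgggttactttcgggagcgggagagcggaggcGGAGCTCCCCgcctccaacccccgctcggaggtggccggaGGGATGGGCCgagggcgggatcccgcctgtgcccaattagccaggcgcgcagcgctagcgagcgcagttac

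The interferon regulatory factor pattern occurred once in the Cd274 window, on the opposite strand at 175 to 168 bases before the start, and once in the Pdcd1lg2 window, on the opposite strand at 35 to 28 bases before it. It had 0 matches in the windows of Icosl, Cd80 and Havcr2, and 21.3% of all 32851 windows of this length held it. The Cd80 window, chr16:38458683-38458932, lies inside the annotated gene, which starts at 38455561. The Icosl window runs past the annotated start of that gene. The windows therefore do not all cover the same region relative to the gene. The loose kappaB pattern occurred once in the Pdcd1lg2 window, 0 times in that of Cd274, and 2 times each in those of Icosl and Cd80, where 45.8% of all windows held it. The stricter kappaB pattern GGGNNNTTCC (4.65% of windows) and the STAT pattern TTCNNNGAA (7.02%) had 0 matches in all 5 windows examined. The AP-1 pattern TGANTCA (6.75%) had 1 match each in Cd80 and Havcr2. None of these matches is evidence of binding. The table used held no window for Cd40, Cd86, Cd83 or Tnfsf9.

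At 3 days after LPS the 2 gates carried different amounts of some of these transcripts, all of which were present in both. Fth1-high cells held 2.16 times the PD-L1 transcript of Fth1-low cells, 864 ± 119.6 CPM (mean ± SD, n = 3) against 399 ± 41.8 CPM (n = 2). They held less transcript of 3 other molecules: ICOS ligand was 3.07-fold lower, CD40 2.07-fold lower and CD80 1.85-fold lower. Each of these gate calls, that of Cd274 included, was lost in some fits that left out a library, as given below with each gene. In the Fth1-low gate LPS-treated cells exceeded untreated cells for 5 of the 9 genes, by 2.93-fold for Tnfsf9 to 12.9-fold for Cd274. In these bulk libraries, fewer cells that express a gene and less transcript per cell cannot be told apart.

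Counts were compared with edgeR's quasi-likelihood test over all 13665 genes, and a gene was called at a Benjamini-Hochberg adjusted p below 0.05. Every adjusted p below comes from that test, and every ± beside a log2 difference is a standard error. Between the LPS gates 1 of the 9 genes was higher in Fth1-high cells and 3 were lower, 4 in all. Of all tested genes, 8.25% were called in that comparison, 3.68% higher and 4.57% lower. These 503 higher and 625 lower genes became 306 and 602 without LPS Fth1-low replicate 1, and 682 and 379 without its replicate 2. The libraries of the LPS gates did not overlap for 7 of the 9 genes, 1 with Fth1-high cells above and 6 with them below, as for 41.3% of all tested genes (24.2% above and 17.1% below). The median log2 difference of the 9 genes was -0.82, beside 0.04 for all genes. In LPS Fth1-low against untreated cells 5 were higher and 0 lower, where 3.62% of all genes were called, 2.99% higher and 0.629% lower. Libraries did not overlap for 8 of the 9, 7 with LPS cells above and 1 with them below, against 39.5% of all genes (16.3% above and 23.2% below), and the median was 1.55 against -0.05. In LPS Fth1-high against untreated Fth1-low cells, where treatment and gate cannot be told apart, 6 were higher and 2 lower, with 24.3% of all genes called (12.4% higher and 11.9% lower). There all 9 had libraries that did not overlap, 6 above and 3 below the untreated ones, against 58.1% of all genes (30.3% above and 27.8% below), and the median was 0.90 against 0.03. The last 2 comparisons share the untreated libraries.

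**Figure D1:**
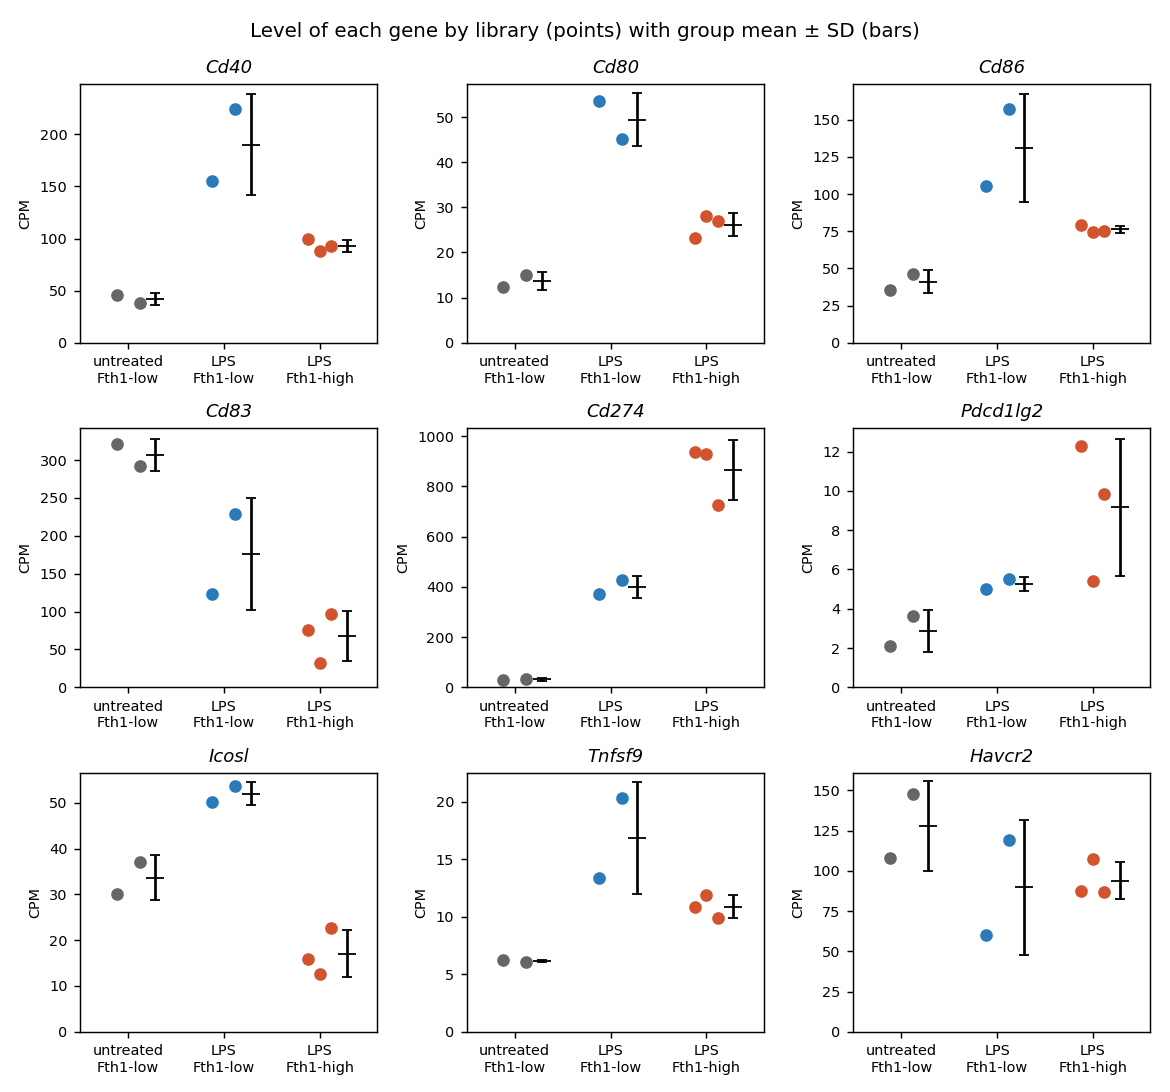
Level of each of the 9 genes in CPM, with 1 point per library and a bar for the group mean ± SD (n = 2, 2 and 3 for untreated Fth1-low, LPS Fth1-low and LPS Fth1-high). Cd40, Cd80, Cd86, Icosl and Tnfsf9 are highest in the LPS Fth1-low libraries, Cd274 in the LPS Fth1-high libraries and Cd83 in the untreated libraries.

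The PD-1 ligands differed greatly in amount. Cd274 stood at 27.5 and 34.8 CPM in untreated libraries, 369.6 and 429 CPM in the LPS Fth1-low pair, and 938, 928 and 726 CPM in LPS Fth1-high libraries. The 3 groups were fully separate, in that order. LPS Fth1-high cells exceeded LPS Fth1-low cells by 1.11 ± 0.23 on the log2 scale (adjusted p = 0.016). LPS Fth1-low cells exceeded untreated cells by 3.69 ± 0.27 (adjusted p = 1.0e-04). Between LPS Fth1-high and untreated cells the difference was 4.80 ± 0.27 (adjusted p = 5.5e-06), or 27.8-fold. The gate difference was no longer called without LPS Fth1-low replicate 1 (0.99, adjusted p = 0.075) or LPS Fth1-high replicate 2 (1.03, adjusted p = 0.066), while both differences from untreated cells were called with any library left out.

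Pdcd1lg2, the second PD-1 ligand, was the scarcest of the 9 per kilobase of exon in the Fth1-low groups. It stood at 2.12 and 3.63 CPM in untreated, 5.02 and 5.50 CPM in LPS Fth1-low, and 12.3, 5.40 and 9.86 CPM in LPS Fth1-high libraries. The value of 5.02 CPM rests on 3 counts, with an exact Poisson 95% interval of 1.03 to 14.7 CPM that covers counting error only. The LPS gates overlapped and differed by 0.77 ± 0.48 (adjusted p = 0.408), and the LPS Fth1-low and untreated cells differed by 0.92 ± 0.51 (adjusted p = 0.514). LPS Fth1-high cells exceeded untreated cells by 1.69 ± 0.45 (adjusted p = 0.022), but not without untreated replicate 1 (1.33, adjusted p = 0.170) or replicate 2 (2.11, adjusted p = 0.0505), nor without LPS Fth1-high replicate 1 (1.43, adjusted p = 0.066) or replicate 3 (1.63, adjusted p = 0.075). Per kilobase of exon, Cd274 was 5.18 to 7.02 times Pdcd1lg2 in the untreated libraries and 39.9 to 93.0 times in the LPS libraries. An antisense gene overlaps each of the PD-1 ligand genes, and no source used here gives the strand counted.

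The CD28 ligands followed each other across the groups. Cd80 was 12.3 and 15.1 CPM in untreated, 53.5 and 45.2 CPM in LPS Fth1-low, and 23.3, 28.2 and 26.9 CPM in LPS Fth1-high libraries. Cd86 was 35.5 and 46.4 CPM in untreated, 105 and 157 CPM in LPS Fth1-low, and 79.2, 74.5 and 75.1 CPM in LPS Fth1-high libraries. For each gene the LPS Fth1-low libraries were highest, the untreated lowest, and no groups overlapped.

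Cd80 rose by 1.82 ± 0.23 in LPS Fth1-low against untreated cells (adjusted p = 0.0021) and kept that call with any library left out. In LPS Fth1-high cells it was lower than in LPS Fth1-low cells by a log2 difference of -0.88 ± 0.20 (adjusted p = 0.028). The call disappeared on leaving out LPS Fth1-low replicate 1 (-0.81, adjusted p = 0.071) or 2 (-1.02, 0.064), and without LPS Fth1-high replicate 1 (-0.81, 0.072), 2 (-0.97, 0.077) or 3 (-0.91, 0.091), and it was also lost with limma-voom (adjusted p = 0.061). Cd80 still exceeded its untreated level in LPS Fth1-high cells (0.94 ± 0.20, adjusted p = 0.0080), a call lost without untreated replicate 1 (0.79, adjusted p = 0.0996) and after thinning all libraries to equal depth (0.63, adjusted p = 0.332).

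Cd86 rose by 1.71 ± 0.25 in LPS Fth1-low against untreated cells (adjusted p = 0.0048) and by 0.90 ± 0.23 in LPS Fth1-high against untreated cells (adjusted p = 0.017). Without untreated replicate 1 these were 1.53 (adjusted p = 0.068) and 0.71 (adjusted p = 0.162). Between the LPS gates it differed by -0.82 ± 0.22 and just missed the threshold (adjusted p = 0.054). Among the alternative analyses 8 of 17 called this difference, among them RLE scaling (adjusted p = 0.041), the DESeq2 Wald test (adjusted p = 0.012) and the fit without LPS Fth1-low replicate 1 (-1.06, adjusted p = 0.026). Without LPS Fth1-low replicate 2 it was -0.46 (adjusted p = 0.277). The ratio of Cd86 to Cd80 per kilobase of exon lay between 1.99 and 3.51 in all 7 libraries, with the lowest and the highest value both in LPS Fth1-low cells.

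CD40, the receptor for CD40 ligand, had the same order of groups. Cd40 (chromosome 2, 165055627 to 165072948 in mm10, plus strand) was 46.0 and 37.9 CPM in untreated, 156 and 224 CPM in LPS Fth1-low, and 99.3, 87.9 and 92.4 CPM in LPS Fth1-high libraries. The groups did not overlap. The rise in LPS Fth1-low over untreated cells was 2.20 ± 0.24 (adjusted p = 9.8e-04), or 4.59-fold, and was called with any library left out. The gate difference after LPS was -1.05 ± 0.21 (adjusted p = 0.015). Leaving out LPS Fth1-low replicate 2 ended this call (-0.73, adjusted p = 0.077), as did leaving out LPS Fth1-high replicate 2 (-1.03, adjusted p = 0.061) or 3 (-1.04, adjusted p = 0.062). LPS Fth1-high cells exceeded untreated cells by 1.15 ± 0.22 (adjusted p = 0.0044), a call lost without untreated replicate 2 (1.03, adjusted p = 0.061).

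Icosl, the ligand of ICOS, had the lowest fitted difference of the 9 genes between the LPS gates, with Cd83 next at -1.41 ± 0.42. Icosl was 30.1 and 37.1 CPM in untreated, 50.2 and 53.7 CPM in LPS Fth1-low, and 15.9, 12.6 and 22.7 CPM in LPS Fth1-high libraries. The LPS Fth1-high libraries lay below every other library. The gate difference after LPS was -1.62 ± 0.27 (adjusted p = 0.0060), lost only without LPS Fth1-low replicate 2 (-1.55, adjusted p = 0.072) among the 7 fits that leave out 1 library. LPS Fth1-low cells were not called against untreated cells (0.64 ± 0.29, adjusted p = 0.388), although their libraries did not overlap. Icosl was lower in LPS Fth1-high than in untreated cells (-0.97 ± 0.25, adjusted p = 0.020). This difference was not called without untreated replicate 1 (-1.12, adjusted p = 0.053) or 2 (-0.81, 0.146), and without LPS Fth1-high replicate 1 (-0.92, 0.051) or 2 (-0.79, 0.078).

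Tnfsf9, the TNF family ligand of CD137, was scarce. It was 6.20 and 6.06 CPM in untreated, 13.4 and 20.3 CPM in LPS Fth1-low, and 10.8, 11.9 and 9.89 CPM in LPS Fth1-high libraries. The 13.4 CPM rests on 8 counts (exact Poisson 95% interval 5.78 to 26.4 CPM, counting error only). It rose by 1.55 ± 0.30 in LPS Fth1-low against untreated cells (adjusted p = 0.020). It was not called in the fit of those 2 groups alone (adjusted p = 0.057), without untreated replicate 1 (1.57, adjusted p = 0.131) or 2 (1.56, 0.146), and without LPS Fth1-low replicate 2 (1.11, 0.229). The LPS gates did not overlap, but their difference, -0.73 ± 0.26, missed the threshold (adjusted p = 0.143) and shrank to -0.29 (adjusted p = 0.750) without LPS Fth1-low replicate 2. The contrast of LPS Fth1-high against untreated cells gave 0.82 ± 0.26 (adjusted p = 0.045), a call that 8 of 16 alternatives did not make. Those 8 were the DESeq2 Wald test (adjusted p = 0.104), no filter on low counts (adjusted p = 0.075), a block of replicate number, and the fits without untreated replicate 1 (0.84, adjusted p = 0.177) or 2 (0.82, 0.187) or LPS Fth1-high replicate 1 (0.83, 0.084), 2 (0.75, 0.169) or 3 (0.89, 0.098). Tnfsf9 overlaps the noncoding gene Gm11110 on the opposite strand.

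Unlike Cd40, Cd80, Cd86 and Tnfsf9, Cd83 stood lower in every LPS library than in the untreated libraries. Between the LPS gates Cd83 was lower in the Fth1-high libraries, as those genes were. It was 321 and 292 CPM in untreated, 124 and 228 CPM in LPS Fth1-low, and 75.9, 32.1 and 96.2 CPM in LPS Fth1-high libraries. The groups did not overlap, and the untreated libraries were highest. LPS Fth1-high cells were lower than untreated cells by a log2 difference of -2.17 ± 0.42 (adjusted p = 0.0050), a 4.51-fold difference that all 17 alternatives called. The steps in between were not called: -0.76 ± 0.47 for LPS Fth1-low against untreated cells (adjusted p = 0.566) and -1.41 ± 0.42 between the LPS gates (adjusted p = 0.080). Of 17 alternatives 3 called the gate difference: the DESeq2 Wald test (adjusted p = 0.0037), libraries thinned to equal depth (adjusted p = 0.0056) and a block of replicate number (-1.81, adjusted p = 9.2e-04). Without LPS Fth1-low replicate 2 it was -0.86 (adjusted p = 0.408).

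Havcr2, which encodes TIM-3, was not called in any comparison. It was 108 and 148 CPM in untreated, 60.2 and 119 CPM in LPS Fth1-low, and 87.5, 107 and 87.2 CPM in LPS Fth1-high libraries. The difference between the LPS gates was -0.01 ± 0.28 (adjusted p = 0.992), but its direction turned with the libraries used, from -0.37 without LPS Fth1-low replicate 1 to 0.65 without replicate 2. Against untreated cells the differences were -0.43 ± 0.31 in LPS Fth1-low (adjusted p = 0.640) and -0.44 ± 0.27 in LPS Fth1-high cells (adjusted p = 0.278).

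**Figure D2:**
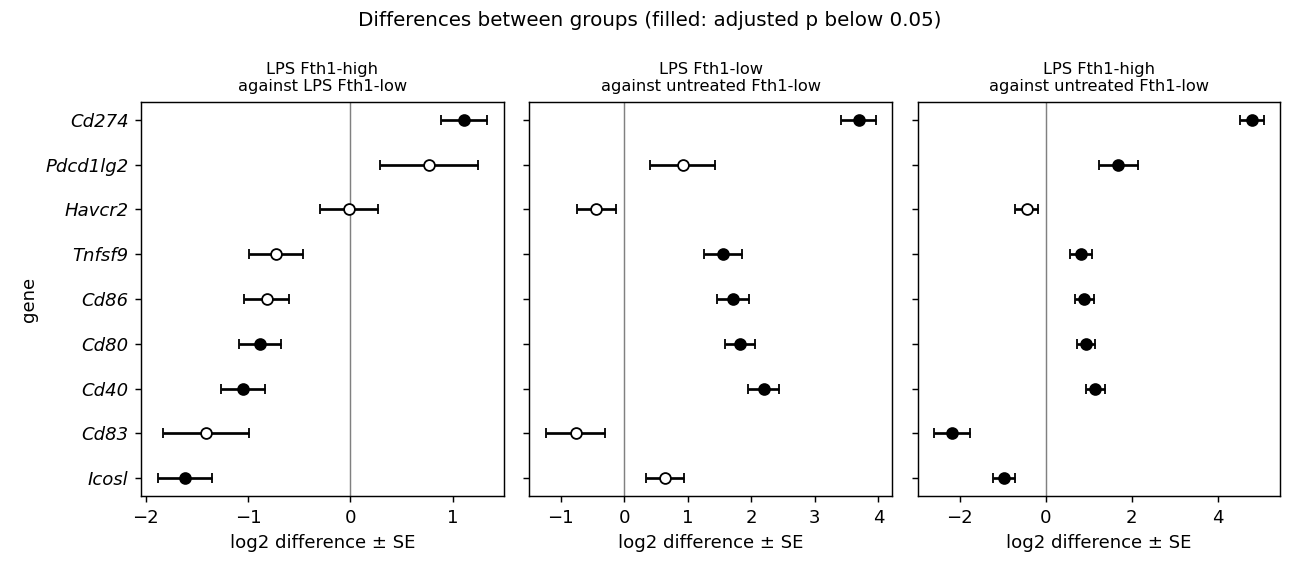
Fitted log2 difference ± SE of each gene in the 3 comparisons, with filled points where the adjusted p was below 0.05. Cd274 is filled and to the right of 0 in all 3 panels, while Cd40, Cd80 and Icosl are filled and left of 0 between the LPS gates.

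The number of calls between the LPS gates depended on single libraries. When LPS Fth1-low replicate 2 was left out, Cd274 alone was called (1 higher, 0 lower). When LPS Fth1-high replicate 2 was left out, Icosl alone was called (0 higher, 1 lower), and when replicate 3 of that group was left out, both were. The fit that omitted the shallow LPS Fth1-low replicate 1 called 0 higher and 3 lower (Cd40, Cd86 and Icosl). The signs of the 8 genes other than Havcr2 were the same in all 7 fits that left out 1 library. In LPS Fth1-low against untreated cells 3 were higher without untreated replicate 1, against 5 with all libraries. In LPS Fth1-high against untreated cells omitting untreated replicate 1 gave 2 higher and 1 lower, omitting its replicate 2 gave 3 and 1, and omitting LPS Fth1-high replicate 1 gave 4 and 1.

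**Figure D3:**
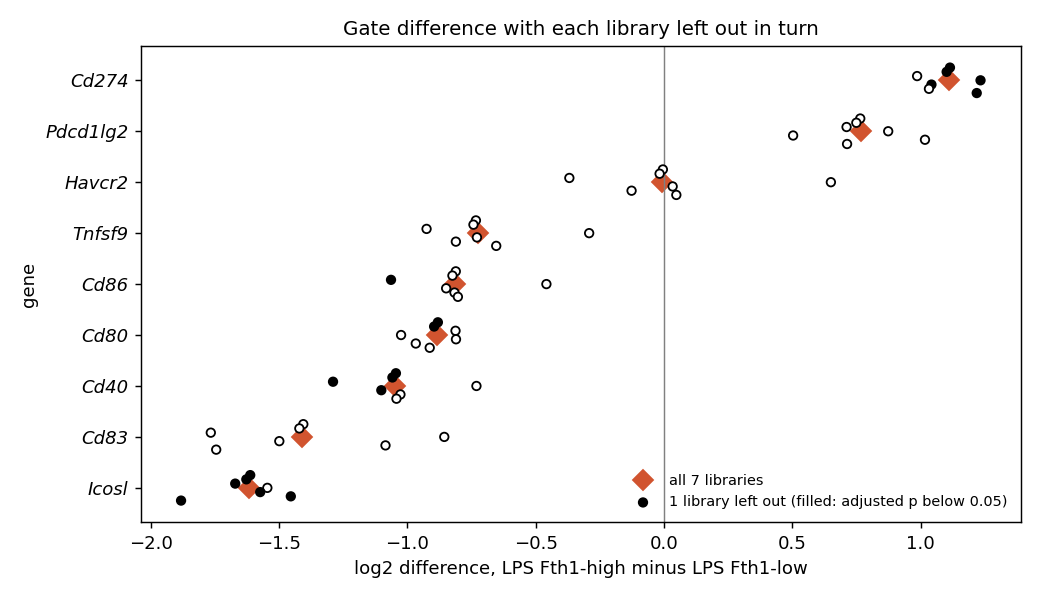
Log2 difference between LPS Fth1-high and LPS Fth1-low cells with all 7 libraries (diamonds) and with each library left out (circles, filled where the adjusted p was below 0.05). Cd274 and Pdcd1lg2 stay to the right of 0, Havcr2 straddles 0, and the other 6 genes stay to the left.

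On the scale of CPM per kilobase of exon, which allows levels of different genes to be compared, the leading transcript changed with the group. In untreated cells Cd83 was first at 119 (range 114 to 125) and Havcr2 second at 47.0, while Cd40 at 12.3 and Cd86 at 11.2 overlapped in range. Cd274 came next there at 8.60 and overlapped Icosl at 7.27. In LPS Fth1-low cells Cd274 was first at 110.2 (range 102 to 118), Cd83 at 68.5 overlapped Cd40 at 55.7, and Cd86 at 35.8 overlapped Havcr2 at 33.0. Cd80, Tnfsf9 and Icosl followed at 13.3, 13.1 and 11.2, with each neighbouring pair overlapping except Icosl and Pdcd1lg2. In LPS Fth1-high cells Cd274 stood at 239 (range 200.5 to 259), followed by Havcr2 at 34.5, and Cd40, Cd83 and Cd86 came next at 27.4, 26.5 and 20.8, with neighbours overlapping. Icosl was last at 3.69 and overlapped Pdcd1lg2 at 4.68.

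Cd274 thus made up 3.60% and 4.37% of the summed CPM per kilobase of the 9 transcripts in untreated libraries. The share was 35.8% and 29.4% in LPS Fth1-low and 65.4%, 68.0% and 58.5% in LPS Fth1-high libraries. Cd83 made up 59.1% and 51.6% of the sum in untreated, 16.9% and 22.1% in LPS Fth1-low, and 7.45%, 3.31% and 10.9% in LPS Fth1-high libraries. Without Cd274 the other 8 genes summed to 562 and 586 CPM in untreated, 567 and 854 CPM in LPS Fth1-low, and 404, 359.8 and 420.2 CPM in LPS Fth1-high libraries. That sum, in CPM and not per kilobase, was lower in each LPS Fth1-high library than in any other library. Cd83 alone gave 321 and 292 CPM of it in the untreated libraries. Of the rest, only Icosl and Havcr2 were also lower in every LPS Fth1-high library than in the untreated ones. Cd40, Cd80, Cd86, Pdcd1lg2 and Tnfsf9 were higher in each.

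**Figure D4:**
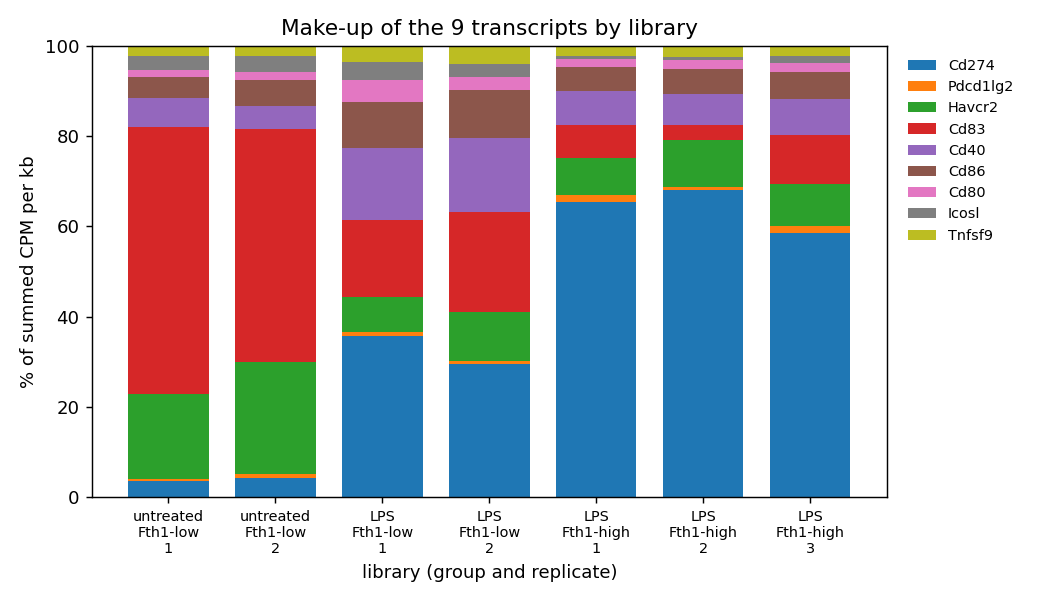
Share of each gene in the summed CPM per kilobase of exon of the 9 genes, with 1 stacked bar per library. Cd83 fills 51.6% or more of each untreated bar and Cd274 58.5% or more of each LPS Fth1-high bar, with the LPS Fth1-low bars in between for Cd274.

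Other ligands read by T cells were counted in the same way. The list counts from here on stand beside the shares of all tested genes called. These were 3.68% higher and 4.57% lower between the LPS gates, and 2.99% and 0.629% in LPS Fth1-low against untreated cells. In LPS Fth1-high against untreated cells they were 12.4% and 11.9%. Of 20 listed B7, TNF family and nectin ligands 13 were tested, and in LPS Fth1-high against LPS Fth1-low cells 0 were higher and 2 lower, with a median of -0.45. Ceacam1, an adhesion molecule that also binds TIM-3, was 185.6 and 207 CPM in LPS Fth1-low and 21.3, 16.5 and 14.5 CPM in LPS Fth1-high libraries (-3.50 ± 0.22, adjusted p = 8.6e-05), and 458 and 519 CPM in untreated libraries. Tnfsf14, the ligand LIGHT, differed by -1.69 ± 0.42 (adjusted p = 0.037). Leaving out either untreated library, LPS Fth1-low replicate 2, or replicate 1 or 2 of the LPS Fth1-high group gave 1 lower. In LPS Fth1-low against untreated cells 3 were higher and 1 lower. That count was 0 without untreated replicate 1, 2 higher without its replicate 2 and 1 higher without LPS Fth1-low replicate 2. Against untreated cells, LPS Fth1-high cells had 5 higher and 4 lower.

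Genes of the CD40 and NF-kB relay were compared in LPS Fth1-high against LPS Fth1-low cells, where 4.57% of all genes were lower. Of 15 tested, 0 were higher and 3 lower: Rel (-1.22 ± 0.26, adjusted p = 0.018), an NF-kB subunit, Map3k14 (-1.12 ± 0.25, adjusted p = 0.024), the kinase that starts the noncanonical branch, and Nfkb1 (-0.82 ± 0.21, adjusted p = 0.046), the precursor of p50. The median was -0.22. This count was 1 without LPS Fth1-low replicate 1 and 0 without replicate 2 of that group or replicate 2 or 3 of the LPS Fth1-high group. In LPS Fth1-low against untreated cells 3 of 15 were higher and 0 lower, and 0 without either untreated library or LPS Fth1-low replicate 2. LPS Fth1-high against untreated cells gave 3 higher and 3 lower.

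The interferon-gamma relay and PD-L1 handling list had 0 of 14 genes higher and 3 lower in the Fth1-high gate, where Cd274 itself was higher, with a median of -0.35. Irf1, a transcription factor induced by interferon, was 826 and 865 CPM in LPS Fth1-low and 480.4, 397 and 337 CPM in LPS Fth1-high libraries (-1.06 ± 0.21, adjusted p = 0.014). Ifngr1, a chain of the interferon-gamma receptor, differed by -1.23 ± 0.27 (adjusted p = 0.024) and Irf4 by -2.36 ± 0.54 (adjusted p = 0.029). The DESeq2 Wald test called 1 higher and 4 lower, and 1 was lower without LPS Fth1-high replicate 2 or 3. Against untreated cells 4 were higher and 0 lower in LPS Fth1-low, and 0 without untreated replicate 1. In LPS Fth1-high against untreated cells 5 were higher and 3 lower.

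Of 12 dendritic cell maturation genes 11 were tested, and 0 were higher and 3 lower in the Fth1-high gate, with a median of -0.94. Il12b, a subunit of interleukin-12, was 36.8 and 73.7 CPM in LPS Fth1-low and 5.70, 3.98 and 6.54 CPM in LPS Fth1-high libraries (-3.44 ± 0.33, adjusted p = 4.3e-04), with 1 and 0 counts in the untreated libraries. Ccl22, a chemokine of mature dendritic cells, differed by -3.24 ± 0.52 (adjusted p = 0.0055) and Il15, a cytokine for memory T cells and NK cells, by -1.60 ± 0.38 (adjusted p = 0.033). In LPS Fth1-low against untreated cells 4 were higher and 0 lower, and 2 were higher when replicate 2 of either group was left out. In LPS Fth1-high against untreated cells 6 were higher and 2 lower. Leaving out untreated replicate 2 gave 2 and 3, and leaving out LPS Fth1-high replicate 2 or 3 gave 4 and 1 or 3 and 1.

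Of 5 tested genes for CD83 and CD86 turnover 1 was higher and 1 lower in the Fth1-high gate, with a median of 0.41. March8, a membrane ubiquitin ligase, was 8.36 (5 counts) and 26.4 CPM in LPS Fth1-low and 51.2, 55.0 and 57.8 CPM in LPS Fth1-high libraries (1.34 ± 0.33, adjusted p = 0.036). Il10ra, a chain of the interleukin-10 receptor, was lower by a log2 difference of -1.03 ± 0.21 (adjusted p = 0.015). Il10rb, another chain of that receptor, went the other way without overlap (means of 213 against 91.5 CPM) and was not called (1.13 ± 0.33, adjusted p = 0.074). March1 (means of 206 against 151 CPM) and Il10 overlapped between the gates and were not called. The higher level of March8 was not called when untreated replicate 2 or replicate 1 of either LPS group was left out, and both calls were lost without LPS Fth1-high replicate 2 or 3. In LPS Fth1-low against untreated cells 1 of 5 was higher and 0 lower, and 0 were called without either untreated library or LPS Fth1-low replicate 2. In LPS Fth1-high against untreated cells 2 were higher and 1 lower.

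Markers of other cells moved with some of these results. Of 7 conventional dendritic cell markers 0 were higher and 3 lower in the LPS Fth1-high than in the LPS Fth1-low gate: Flt3, Dpp4 and Cd209a. Their summed level was 162 to 188 CPM in untreated, 95.3 to 99.2 CPM in LPS Fth1-low and 12.1 to 21.3 CPM in LPS Fth1-high libraries. None of the 7 was at 0 in a whole group, and Zbtb46 had 0 counts in LPS Fth1-low replicate 1. So Cd40, Cd80 and Icosl fell between the LPS gates together with these markers, and their part in that result was not tested. The sum was lower in LPS Fth1-low than in untreated libraries, where Cd40, Cd80, Cd86, Cd274 and Tnfsf9 rose, but the 7 markers went both ways. Cd209a was lower (-3.67 ± 0.42, adjusted p = 0.0012), and 3 of 7 markers had LPS Fth1-low libraries below the untreated ones without overlap (23.2% of all genes). Another 3 had them above without overlap (16.3% of all genes) and were not called: Ccr7 had means of 26.8 against 7.33 CPM, Xcr1 of 4.87 against 0.732 CPM and Clec9a of 8.65 against 3.89 CPM. In the shallow LPS Fth1-low replicate 1 these 3 rest on 20, 5 and 7 counts. Replicate 2 of that group stood at 20.2, 1.39 and 5.60 CPM. Cd274 was highest in the libraries with the lowest marker sum.

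The sums of 6 T cell markers were 15.0 to 32.7, 12.8 to 48.5 and 2.48 to 14.3 CPM in the 3 groups in the same order, with 0 of 6 called in any comparison. The 6 T cell receptors engaged by the 9 molecules had at most 93 counts in any library, and only Icos was lower in the LPS Fth1-high gate (-3.41 ± 0.78, adjusted p = 0.026), a call lost without either LPS Fth1-low library or LPS Fth1-high replicate 2 or 3. The sums of 5 B cell markers were 30.8 to 67.3, 14.2 to 87.0 and 5.73 to 30.4 CPM, with 87.0 CPM in the shallow LPS Fth1-low replicate 1. Cd79b was lower in LPS Fth1-high than in LPS Fth1-low libraries without overlap (means of 4.82 and 17.4 CPM) and was not called. Against untreated cells it was called lower in LPS Fth1-high cells (-2.21 ± 0.46, adjusted p = 0.0074). The other B cell markers overlapped between the gates. Neutrophil markers summed to 78.6 to 86.8, 70.2 to 199.8 and 17.0 to 39.3 CPM, and alveolar macrophage markers to 1446 to 1460, 3197 to 5818 and 479 to 1885 CPM. Each of these 2 sums was mostly 1 gene. Mmp8 held 71.2 to 78.1, 68.6 to 187 and 13.9 to 36.6 CPM of the neutrophil sum. Chil3 held 1409 to 1427, 3186 to 5803 and 470 to 1876 CPM of the alveolar macrophage sum. These genes alone of the 2 lists were called between the LPS gates, both lower in Fth1-high cells. Marco was higher there without overlap and not called, and Siglecf, Fabp4 and Car4 overlapped. The sums of 4 NK cell markers, 13.4 to 15.1 CPM in LPS Fth1-low and 3.05 to 6.64 CPM in LPS Fth1-high libraries, did not overlap. Nor did those of 3 plasmacytoid dendritic cell markers, 61.6 to 90.3 against 31.1 to 52.4 CPM. Tcf4 made up nearly all of the latter (59.6 to 85.3 against 29.7 to 49.4 CPM), while Siglech and Ccr9 overlapped. Between the gates 0 genes of either list were called. Untreated replicate 1 stood apart from its partner in epithelial markers, with a sum of 587 CPM against 2.98 CPM (Sftpc, a surfactant gene, 494 against 1.40 CPM), and in endothelial markers, with 263 against 129.6 CPM. Both comparisons with untreated cells rest on that library, and the calls lost without it are given with each gene. Of the 6 monocyte genes Ccr2 alone was called between the LPS gates, lower in Fth1-high cells (-2.44 ± 0.39, adjusted p = 0.0057). Its means were 226 CPM there and 1219 CPM in LPS Fth1-low cells. Ly6c2, Itgam and Csf1r were higher in the LPS Fth1-high libraries without overlap and were not called. The part of these markers in the results above was not tested.

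Across the 7 libraries the genes most like each member were sought among 8040 tested genes whose mean reached 10 CPM, by Pearson correlation of log2 CPM. These are descriptions over libraries that share 3 groups and differ in depth. The profile of Cd274 was closest to Tcp11l1 (0.999) and Gbp10 (0.998), and 202 genes exceeded 0.95. For Cd40 the closest were Il12b (0.987) and Ccl4 (0.975), for Cd80 Ccl4 (0.974) and Mxd1 (0.971), and for Cd86 Mxd1 (0.983) and Ifi205 (0.978). Icosl was closest to Egr1 (0.991) and Ap1b1 (0.982), and Tnfsf9 to Ppt1 (0.988) and Marcksl1 (0.985). Cd83 was closest to Hpgd (0.992) and Gprc5a (0.983), and Havcr2 to Ugcg (0.986) and Rnf20 (0.985). Pdcd1lg2 did not reach 10 CPM in any group mean and was left out.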

How the data were processed

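Polyadenylated RNA was sequenced in 7 libraries made with a stranded kit. The authors deposited whole-number counts per gene and library, and the submitters' processing notes name DRAGEN, DESeq2 and the build mm10, while no source used here gives versions, annotation, strand setting or filters. The table had 0 unused sample columns. These counts went into edgeR 4.0.16 under R 4.3.3: filterByExpr by group (13665 genes), TMM scaling, and 1 robust quasi-likelihood model of 3 groups over 7 libraries (residual df 4), with two-sided tests and adjustment over all genes tested. The standard error is the log2 difference over the square root of F, CPM uses TMM-scaled library totals, and log2 CPM for correlations uses a prior count of 2. Fold differences are fitted values. Exon lengths and positions are from GENCODE vM21 (mm10), 1-based, with all exons of a gene merged. Promoter windows are from RefSeq and matched 5 of 9 genes by symbol.

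The alternatives tried were RLE and upper-quartile scaling, DESeq2 1.42.0 (Wald test), limma 3.58.1 voom with sample quality weights, 2 other filters on low counts, fits of the groups compared alone, a replicate block, each library left out, thinned libraries, and ribosomal RNA genes left out. In simulated counts the procedure called 27.4% of genes given a log2 change of 1 in LPS Fth1-high against LPS Fth1-low cells. That share was 14.7% for LPS Fth1-low and 30.6% for LPS Fth1-high against untreated cells. For a log2 change of 2 the shares were 73.2%, 63.6% and 75%, in the same order. Of the calls, 3%, 4.94% and 7.27% were false. A gene that was not called may therefore still differ. The 9 genes, the lists and the tests were chosen with earlier results of these data known, so the lists carry counts and medians but no test. Named list genes are the 3 called between the LPS gates with the smallest adjusted p, and the 9 genes are all described. Il10rb, March1 and Il10 were named in addition, after their values were seen. Ccr2, Mmp8, Chil3, Flt3, Dpp4 and Cd209a were named as the called members of their marker lists. The other marker genes given singly, among them Ccr7, Xcr1, Clec9a, Sftpc, Marco, Tcf4 and Cd79b, were named after their values were seen. The B cell, epithelial and endothelial marker lists also had 0 genes called between the LPS gates.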

Additional observations from a re-analysis of the deposited data

How the results depend on the processing

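Over all genes, the calls between the LPS gates ranged from 658 to 1061 with 1 library left out (1128 with all), those of LPS Fth1-low against untreated cells from 197 to 531 (495 with all), and those of LPS Fth1-high against untreated cells from 1918 to 4143 (3315 with all). Among the 9 genes the same ranges were 1 to 4 (4 with all), 3 to 5 (5) and 3 to 8 (8). The DESeq2 Wald test called 812 genes and limma-voom with quality weights 329 in LPS Fth1-low against untreated cells. Libraries thinned to equal depth gave 2027 genes and 5 of the 9 in LPS Fth1-high against untreated cells, and Pdcd1lg2 and Tnfsf9 were not tested there. Apart from these, the total counts stayed within 1.5 times, but their directions moved more: without LPS Fth1-low replicate 2, LPS Fth1-low against untreated cells gave 282 higher and 249 lower genes, against 409 and 86 with all libraries.

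With 1 library left out, the gate difference of Havcr2 ranged from -0.37 to 0.65. It turned positive without LPS Fth1-low replicate 2 (0.65), LPS Fth1-high replicate 1 (0.03) or replicate 3 (0.05), with the replicate block (0.14) and on thinned libraries (0.022). It was not called in any of these fits, and no other of the 9 genes changed direction in any alternative. Of the alternative fits of single genes and comparisons, 399 kept direction and call, 38 lost a call, 11 gained one and 5 changed direction. Without LPS Fth1-low replicate 1 or 2, the lone library of that group is assumed to vary like the others.

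Replicate numbers were not shown to pair the libraries: deviations from the group means of same-numbered libraries correlated at -0.04 to 0.29. With the replicate number as a block, 1328, 741 and 3119 genes and 4, 5 and 7 of the 9 were called, in the order above. The gate difference of Cd80 was then not called (adjusted p = 0.082), nor was Tnfsf9 in LPS Fth1-high against untreated cells (adjusted p = 0.135), whereas the gate difference of Cd83 was called (-1.81, adjusted p = 9.2e-04). Depth limits the values of LPS Fth1-low replicate 1, where 3 counts equal 5.02 CPM, most of all for Pdcd1lg2 and Tnfsf9.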
